A study of Mus musculus with 13 samples.

Results

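Microglia, the resident macrophages of the central nervous system, were compared between mice in the chronic phase of experimental autoimmune encephalomyelitis (EAE), in which the animal's own T cells attack myelin, and healthy control mice. The cells are those that the authors' deposited cell table calls microglia and that were sorted in the gate for resident cells: 14460 of the 22148 cells of the series, 8305 from 3 chronic libraries and 6155 from 3 control libraries. The series holds 13 single-cell libraries of myeloid cells from spinal cord, and its title concerns reverse electron transport in the mitochondria of such cells. Every group carries the genotype Cx3cr1YFPCreERT2:R26tdTomato, in which a tamoxifen-inducible Cre made from the Cx3cr1 locus marks cells with the red protein tdTomato, so long-lived resident cells keep a mark that newly made blood monocytes lack. Cx3cr1 is itself one of the genes measured here. The control group (n = 3) is labelled as control resident cells, the chronic group (n = 3) as resident cells of chronic EAE, and the peak group (n = 2), used as a second reference, as resident cells at the peak of EAE. In the cell table, control libraries a and b are marked as controls of the peak stage, and only control c as control of the chronic stage. All were used together as the control group. The sources used here do not give age, sex, the inducing agent or the day of collection. Replicates are described as biological in the labels, with no number of animals per sample, so p-values measure the spread between these libraries.

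In the healthy spinal cord microglia survey the tissue and hold a homeostatic programme kept up by transforming growth factor beta signals and by transcription factors such as Sall1; its surface genes include the purine receptor P2ry12 and the membrane protein Tmem119. When myelin or neurons are damaged, microglia can take up a disease-associated programme, with high Apoe, Spp1, Gpnmb and Clec7a and a need to digest lipid-rich debris. Interferon-gamma from T cells adds another layer, in which microglia present antigen on MHC molecules, make chemokines that attract T cells and raise families of immune GTPases.

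UMIs (unique molecular identifiers, each counting 1 captured RNA molecule) were summed over the microglia of each library, and the libraries, not the cells, were compared. Control libraries a, b and c held 1769, 1149 and 3237 microglia, and chronic libraries a, b and c held 1966, 2046 and 4293. The sums came to 6794793, 5415670 and 10330145 UMIs in the control libraries and to 6754413, 6488280 and 17965689 UMIs in the chronic libraries. A median microglial cell held 3635, 4476 and 3017 UMIs in the control libraries and 2856, 2465.5 and 3544 UMIs in the chronic libraries (two-sided exact permutation test, p = 0.2, n = 3 against 3). Genes detected per cell had medians of 1737, 2126 and 1529 in control and 1238, 1121 and 1523 in chronic libraries (p = 0.1 by the same exact test, the smallest p it can give for 3 against 3). Pairs of these libraries shared 0 to 5 cell barcodes. Letters are names only, because the cell table gives no replicate number.

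The libraries were not evenly spread over the 4 pools that the SLX field of the cell table defines. Control a was in pool A, control b in pool C with both peak libraries, chronic a and b in pool D, and only pool B held both sides, as control c and chronic c. Chronic c also stood apart from chronic a and b. Its log2 profile had Pearson correlations of 0.931, 0.916 and 0.933 with controls a, b and c across the genes tested, while chronic a and b had 0.845 to 0.875 with them, and the controls had 0.968 to 0.986 among themselves; genes are not independent points, and these values are descriptions. In the deposited clustering, 62.3% of the microglia of chronic c were in cluster 1, against 19.7% and 20.7% in chronic a and b, whose largest cluster was cluster 4 with 55.1% and 46.3%. The controls had 90.4%, 87.8% and 94.6% of their microglia in cluster 9. Pool and library therefore cannot be told apart within the chronic group, and counts that move by over 1.5 times with the pool as a term are given both ways.

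The label was checked against microglial markers. Csf1r, the receptor for a survival factor of the lineage, had at least 1 UMI in 96.8%, 94.4% and 91.9% of control and in 66.3%, 68.1% and 73.5% of chronic microglia after each cell was thinned to 1000 UMIs, against 5.77%, 6.52% and 5.71% of the T cells of the chronic libraries. Tmem119 and P2ry12 were at 397 CPM or more in each control and chronic library. At 1000 UMIs per cell their mean shares were lower in chronic microglia, 36.9% against 76.8% in control for Tmem119 and 44.7% against 91.6% for P2ry12. Sall1 was in 7.13% of chronic and 22.9% of control microglia. The check compared microglia with T cells only. It does not tell microglia from the 68, 58 and 52 cells annotated as macrophages in chronic a, b and c. Of the marker lists of other cells, 1 of 11 T cell genes, 1 of 9 natural killer cell genes, 5 of 12 monocyte genes and 0 of 5 red cell genes passed the filter on low counts; their values are given at the end. Microglia made up 98.6%, 99.6% and 99.4% of the resident cells in the control libraries and 93.5%, 90.6% and 97.3% in the chronic libraries. The mean share was 93.8% ± 3.40 (SD, n = 3) in chronic and 99.2% ± 0.510 (SD, n = 3) in control libraries, a difference of -5.37 percentage points (exact permutation test, p = 0.1, the smallest it can give). The sources used here do not say how the authors assigned the class.

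Of 22598 features, 11078 were tested with edgeR's quasi-likelihood test on the 8 resident libraries. At a Benjamini-Hochberg adjusted p under 0.05, 3140 genes (28.3% of those tested) differed between chronic and control microglia: 1661 were higher (15%) and 1479 lower (13.4%). The 3 chronic libraries lay wholly above the 3 controls for 2253 genes (20.3%) and wholly below for 2815 (25.4%). Without chronic c, the library nearest to the controls, the counts were 2443 higher and 2476 lower. Leaving out chronic a gave 1025 and 696, leaving out chronic b 1042 and 693, and leaving out control b 1259 and 720. With the pool as a term, which rests the comparison on pool B and leaves 2 residual degrees of freedom, 397 genes were higher and 167 lower, and 551 genes kept their call and sign. Scaling by library size alone moved the median log2 fold change of all genes from -0.06 to -0.51 and turned the split to 918 higher and 4377 lower, so small decreases depend on the scaling.

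**Figure D1:**
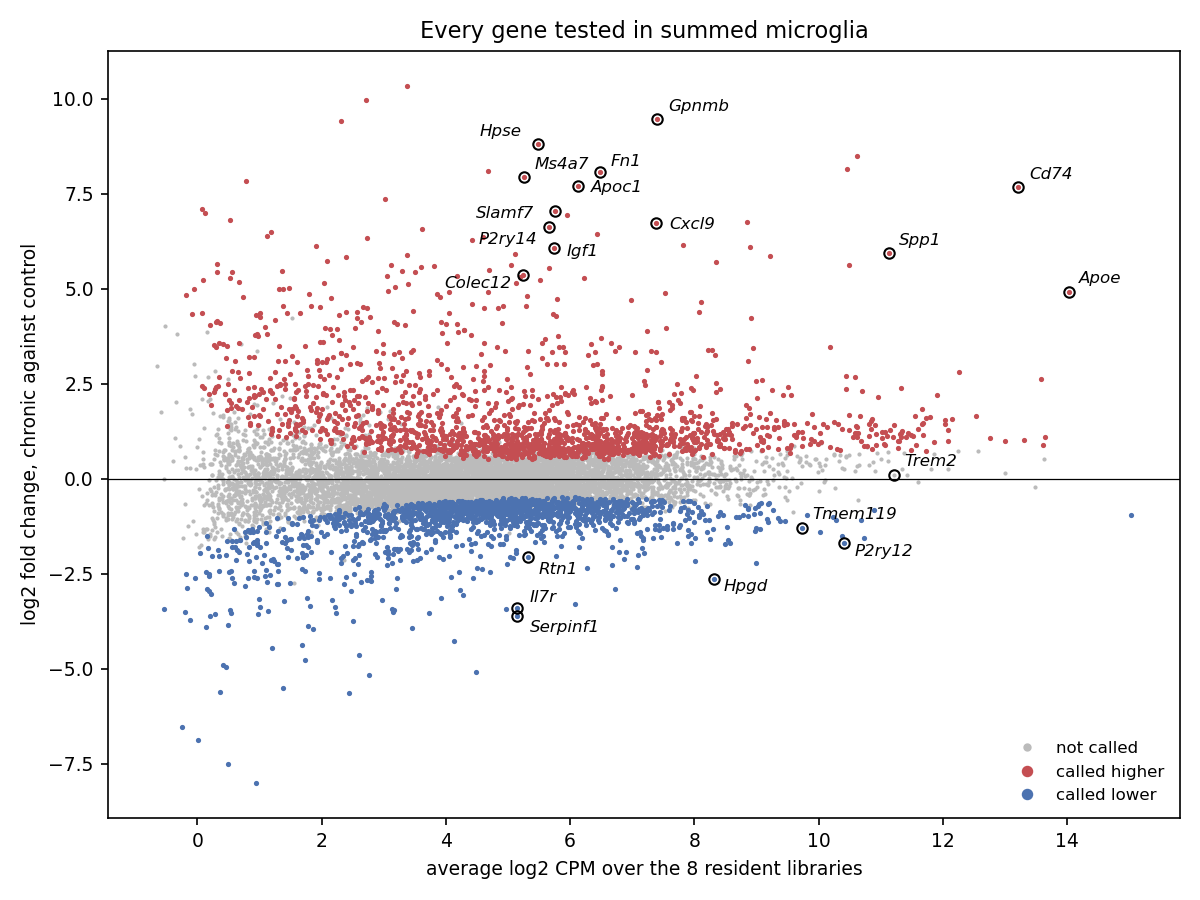
Log2 fold change, chronic against control, of the 11078 genes tested (y axis) against the average log2 CPM over the 8 resident libraries (x axis); each point is 1 gene, red called higher, blue called lower, grey not called. Circled are genes described in the text: Apoe and Cd74 lie far to the right and high up, Trem2 lies near 0, and P2ry12, Tmem119 and Hpgd lie below it.

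Among the genes with the smallest p-values, secreted, matrix and lipid-carrier genes stood beside immune receptors. Apoc1, which encodes a small apolipoprotein, was at 0.513, 0.431 and 1.19 CPM in the controls and at 189, 144 and 157 CPM in the chronic libraries (log2 fold change 7.70 ± 0.32 SE, edgeR adjusted p = 3.09e-08). Slamf7, a receptor of the SLAM family on immune cells, went from 0.641, 0.862 and 0.594 CPM to 113, 72.6 and 87.5 CPM (7.03 ± 0.32, adjusted p = 4.18e-08). Hpse, heparanase, which cuts the heparan sulfate chains of the extracellular matrix, went from 0.256, 0.144 and 0.0849 CPM to 82.8, 94.6 and 45.7 CPM (8.79 ± 0.44, adjusted p = 1.11e-07). All 3 genes were close to absent from control microglia and present in each chronic library, with no overlap.

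P2ry14, a receptor for UDP-glucose released from stressed cells, was measured at 0.641, 1.01 and 0.17 CPM in control and 70.8, 55.9 and 37.3 CPM in chronic libraries (6.61 ± 0.41). Fn1, fibronectin, was at 0.641, 0.287 and 1.02 CPM in control and 330, 162 and 87.5 CPM in chronic libraries (8.07 ± 0.57). Colec12, a scavenger collectin, was at 2.44, 1.58 and 2.80 CPM against 136, 96.3 and 55.5 CPM (5.35 ± 0.39). Chronic c was the lowest chronic library for each of these 3, and still lay far above every control; all 3 also passed with the pool as a term.

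The genes with the smallest p-values among those that fell were mostly not the classic microglial markers. Hpgd, the enzyme that inactivates prostaglandins, was at 766, 520 and 837 CPM in control and 107, 88.5 and 147 CPM in chronic libraries, and fell by 2.63 on the log2 scale (SE 0.27, edgeR adjusted p = 1.91e-05). Serpinf1, which encodes the secreted factor PEDF, was at 104, 61.9 and 86.6 CPM in control and 3.04, 5.24 and 10.9 CPM in chronic libraries (log2 fold change -3.60 ± 0.37). Il7r, the interleukin-7 receptor chain, was at 92.8, 74.3 and 79.8 CPM against 1.97, 6.92 and 12.6 CPM (-3.41 ± 0.40). No chronic library reached the lowest control for any of them, and each kept its call with the pool as a term.

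Arsb, the lysosomal arylsulfatase B, fell from 226, 296 and 198 CPM to 58.5, 50.5 and 69.9 CPM (log2 fold change -2.0 ± 0.23). Klf7, a transcription factor, had 86.8, 109 and 83.6 CPM in control and 18.2, 18.7 and 29.6 CPM in chronic libraries (-2.05 ± 0.23). Gabbr1, a subunit of the GABA-B receptor, had 65.1, 64.4 and 67.5 CPM in control and 11.1, 17.4 and 18.2 CPM in chronic libraries (-2.06 ± 0.25). The remaining genes chosen by the same rule, Fam102b (-2.33), Arhgef40 (-1.78), Snn (-1.67) and Rtn1 (-2.06), had fold changes of similar size, with control libraries close to each other and chronic c usually the nearest to them.

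**Figure D2:**
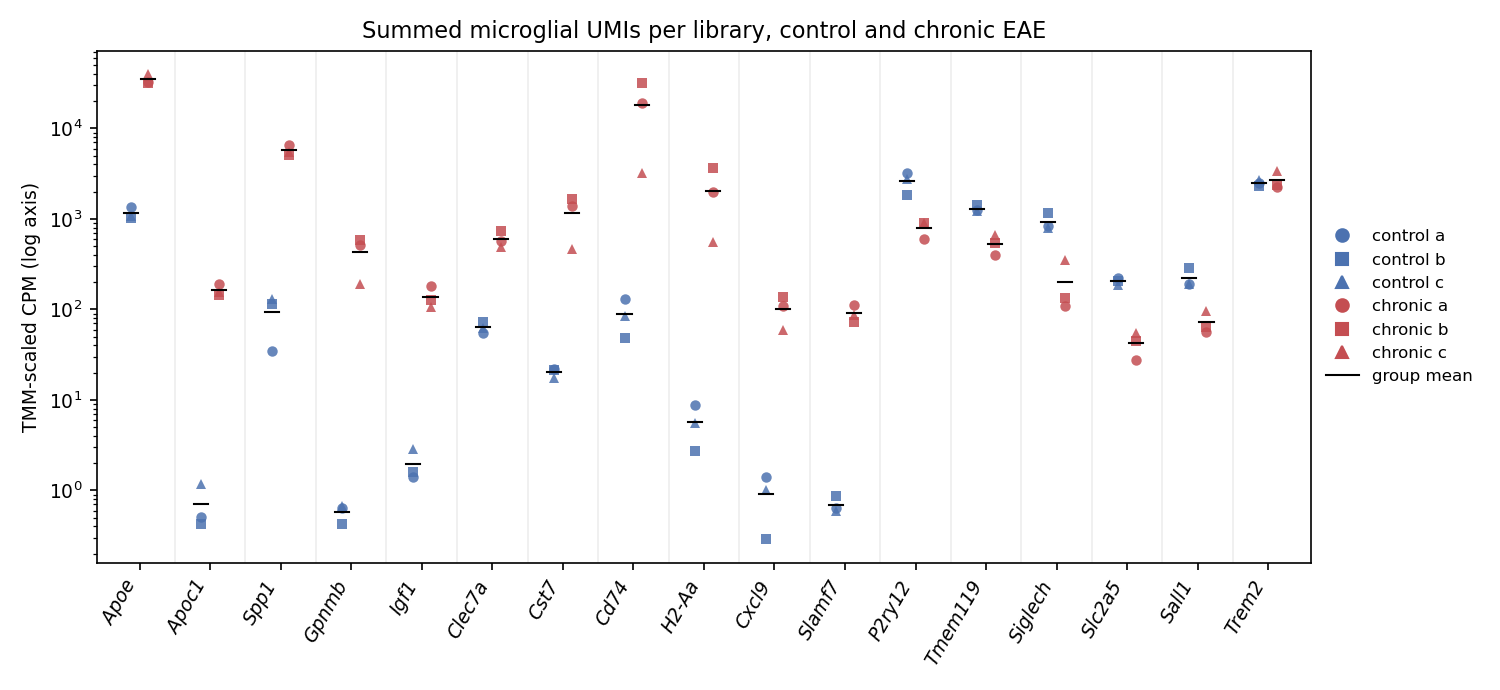
CPM (log axis) of 17 genes in each of the 3 control and 3 chronic libraries; each point is 1 library of summed microglia (circle a, square b, triangle c; control blue, chronic red), and the black bar is the group mean. Apoe, Apoc1, Spp1, Gpnmb and the MHC genes lie above the controls in every chronic library, P2ry12, Tmem119, Siglech, Slc2a5 and Sall1 lie below them, and Trem2 overlaps.

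The homeostatic programme fell, but not as a block. Of 18 homeostatic genes tested, 14 were lower and 0 higher, with a median log2 fold change of -1.20 against -0.06 over all genes. P2ry12, the receptor through which microglia sense released ATP and ADP, was at 3193, 1849 and 2795 CPM in control and 596, 907 and 898 CPM in chronic libraries (-1.71 ± 0.28 SE, adjusted p = 0.000723). Tmem119 was at 1256, 1424 and 1220 CPM against 397, 538 and 660 CPM (-1.29 ± 0.25, adjusted p = 0.0022). Both genes separated the groups fully, and both were still among the better expressed genes of chronic microglia.

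Steeper decreases were found elsewhere in the programme. Slc2a5, the fructose transporter GLUT5, fell from 224, 208 and 189 CPM to 27.5, 45.1 and 55.5 CPM (-2.27 ± 0.29). P2ry13, a second ADP receptor, fell from 443, 535 and 436 CPM to 55.9, 66.4 and 190 CPM (-2.17 ± 0.39). Siglech, a sialic acid receptor, fell from 831, 1166 and 798 CPM to 110, 135 and 351 CPM (-2.23 ± 0.38). For P2ry13 and Siglech chronic c lay well above chronic a and b, and the log2 ratio inside pool B was -1.19 and -1.18. Selplg, a ligand of selectins, had a log2 fold change of -1.57 ± 0.25, and Csf1r, the receptor for the survival factor CSF1, of -0.82 ± 0.23.

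Cx3cr1, the fractalkine receptor and the locus that carries the Cre of these mice, was at 1880, 2340 and 2214 CPM in control and 434, 462 and 1343 CPM in chronic libraries (-1.52 ± 0.39, adjusted p = 0.0111). Its decrease was large in chronic a and b and small in chronic c, and it was -0.72 inside pool B. Homeostatic genes that did not pass included Fcrls (log2 fold change 0.32), Olfml3 (-0.26) and Crybb1 (0.10). Olfml3, a secreted matrix protein, was at 2107, 1189 and 1352 CPM in control and 1569, 1354 and 967 CPM in chronic libraries, so its groups overlapped. Fitted with the pool, 2 of the 18 were still called, P2ry12 (adjusted p = 0.034) and Slc2a5 (adjusted p = 0.026), with a median of -0.98.

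Of 15 transcription factors of microglial identity tested, 5 were lower and 0 higher, with a median of -0.57. Sall1, a zinc-finger repressor made by microglia and few other myeloid cells, was at 190, 285 and 190 CPM in control and 56.1, 64.1 and 96.9 CPM in chronic libraries (-1.61 ± 0.26, adjusted p = 0.000756). Maf, a large Maf factor, was at 567, 743 and 681 CPM against 144, 176 and 332 CPM (-1.61 ± 0.31). Smad3, which carries transforming growth factor beta signals to the nucleus, was at 21.9, 32.8 and 19.6 CPM against 7.51, 6.92 and 12.6 CPM (-1.40 ± 0.28), and Tal1 had the same fold change (-1.40 ± 0.28). Spi1 (-0.03) and Irf8 (-0.07), factors that all macrophages need, did not pass the test. Both were named after their values were seen. The fit with pool left 1 of the 15 called, and Sall1 (adjusted p = 0.14), Maf (0.186), Smad3 (0.375) and Tal1 (0.341) were not among the calls.

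The wider transforming growth factor beta list had 5 of 13 tested members lower and 0 higher, with a median of -0.61. Beside Smad3 they included the receptors Acvr1 (-0.82 ± 0.20) and Bmpr2 (-0.92 ± 0.24) and the co-repressor Ski (-0.89 ± 0.22). Tgfbr1, the fifth, fell by 1.11 and was named to complete the count. With the pool as a term 0 of the 13 members passed (edgeR, adjusted p under 0.05). Leaving out chronic a or chronic b left 2 called, leaving out control b 3, and leaving out chronic c gave 8.

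Disease-associated genes rose almost without exception. Of 22 tested, 21 were higher and 0 lower, with a median log2 fold change of 2.63; the single exception was Trem2. Trem2, the lipid receptor on which this programme depends in other models, was at 2513, 2328 and 2693 CPM in control and 2269, 2380 and 3425 CPM in chronic libraries (0.10 ± 0.24, adjusted p = 0.78). It was thus highly expressed in both groups, with overlapping values.

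Apoe, the main lipid carrier of the brain, was at 1346, 1024 and 1086 CPM in control and 32738, 31924 and 39916 CPM in chronic libraries (4.92 ± 0.30, adjusted p = 4.78e-07). Scaled by library size, with no TMM factor, these chronic levels were 27115, 26310 and 38006 CPM. Spp1, osteopontin, was at 34.7, 116 and 132 CPM against 6478, 5101 and 5559 CPM (5.92 ± 0.64). Gpnmb, a lysosomal membrane glycoprotein, was at 0.641, 0.431 and 0.679 CPM against 520, 586 and 191 CPM (9.46 ± 0.72). In none of these 3 did a chronic library come near a control; Spp1 varied more among the controls than among the chronic libraries, and Gpnmb was lowest in chronic c.

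Igf1, insulin-like growth factor 1, rose from 1.41, 1.58 and 2.89 CPM to 183, 126 and 105 CPM (6.07 ± 0.42). Cst7, the protease inhibitor cystatin F, rose from 21.8, 21.3 and 17.7 CPM to 1388, 1669 and 469 CPM (5.86 ± 0.44). Clec7a, the beta-glucan receptor Dectin-1, rose from 55.4, 72.4 and 62.0 CPM to 573, 734 and 493 CPM (3.25 ± 0.26). Chronic c was clearly lower than a and b for Cst7, and close to them for Clec7a. Lgals3, galectin-3, had a fold change of 4.65 ± 0.36, Itgax, the integrin CD11c, of 3.33 ± 0.28, Axl, a receptor for dying cells, of 2.57 ± 0.35, and Csf1, the growth factor of the lineage, of 3.34 ± 0.46. In the fit with pool, 15 of the 22 members were called higher, with a median of 2.91.

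Neighbours of Apoe on chromosome 7 were also measured. In the GENCODE annotation of GRCm38, Apoe (chr7:19696109-19699188), Apoc1 (chr7:19689481-19692660) and Apoc4 (chr7:19678083-19681479) lie in a row on the minus strand. Apoc4 was at 2.95, 0.431 and 0.594 CPM in control and 186, 198 and 90.8 CPM in chronic libraries (6.94 ± 0.51, adjusted p = 1.87e-06). Apoc2, which lies next to Apoc4, did not pass the filter on low counts. All 3 tested genes of the cluster rose, from very different starting levels.

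Genes of lipid uptake, storage and efflux mostly rose, and those of cholesterol synthesis mostly did not pass the test. Of 18 lipid-handling genes tested out of 21 listed, 15 were higher and 1 lower (median 2.32). Fabp5, a fatty acid binding protein, was at 11.4, 5.46 and 15.0 CPM in control and 1533, 1437 and 546 CPM in chronic libraries (6.76 ± 0.56). Fabp3, a second member of that family, was at 1.41, 1.72 and 0.934 CPM against 106, 96.5 and 36.1 CPM (5.90 ± 0.46). Cd36, a scavenger receptor for oxidised lipid, was at 0.769, 0.575 and 0.339 CPM against 64.7, 62.5 and 16.1 CPM (6.42 ± 0.58). Chronic c had the lowest chronic value of all 3, above every control. Lpl, lipoprotein lipase, at 83.5, 87.5 and 57.4 CPM against 428, 360 and 503 CPM (2.50 ± 0.39), was highest in chronic c. Fitted with the pool, 10 of the 18 were called higher and 0 lower.

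Of 20 genes of cholesterol synthesis, 1 was higher and 5 lower, against 15% and 13.4% of all genes, with a median of -0.35. Sqle, squalene epoxidase, was at 9.74, 7.04 and 5.26 CPM in control and 3.40, 3.74 and 2.51 CPM in chronic libraries (-1.22 ± 0.32). Pmvk, an early enzyme, was the 1 that rose (1.08 ± 0.21). The pool term left 0 of the 20 called by edgeR, with a median of -0.06. Leaving out control a left 2 lower, and leaving out control b, chronic a or chronic b left 3.

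Lysosomal genes rose broadly and by modest amounts: 20 of 29 tested were higher and 0 lower, with a median of 0.90. Atp6v0d2, a subunit of the proton pump found in few cell types, had the largest change, from 0, 0.287 and 0.0849 CPM to 6.61, 14.4 and 6.49 CPM (6.12 ± 0.71). Ctsb, the protease cathepsin B, was at 1596, 1140 and 1217 CPM in control and 7383, 6811 and 3814 CPM in chronic libraries (2.19 ± 0.30, adjusted p = 0.000192). Glb1, beta-galactosidase, was at 55.6, 40.9 and 39.0 CPM against 175, 183 and 83.8 CPM (1.70 ± 0.28). The groups were apart for each, with chronic c nearest to control for Ctsb and Glb1. Scaling by library size alone left 11 members higher and 3 lower (median 0.46), and the pool term left 3 higher. Leaving out chronic a left 12 higher, and leaving out control c or chronic b left 13.

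In RefSeq promoter windows of GRCm38.p6 (250 bases before to 50 after the start, available for 8859 of the 11078 genes tested), the E-box CACGTG stood in 10 of 23 lysosomal genes (43.5%) against 11.9% of all genes. Its longer form TCACGTGA, read on both strands like all motifs here and contained in the count of the E-box, stood in 4 of 23 (17.4%) against 2.30%. These matches describe the letters of the windows and are not evidence that a factor binds there.

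**Figure D3:**
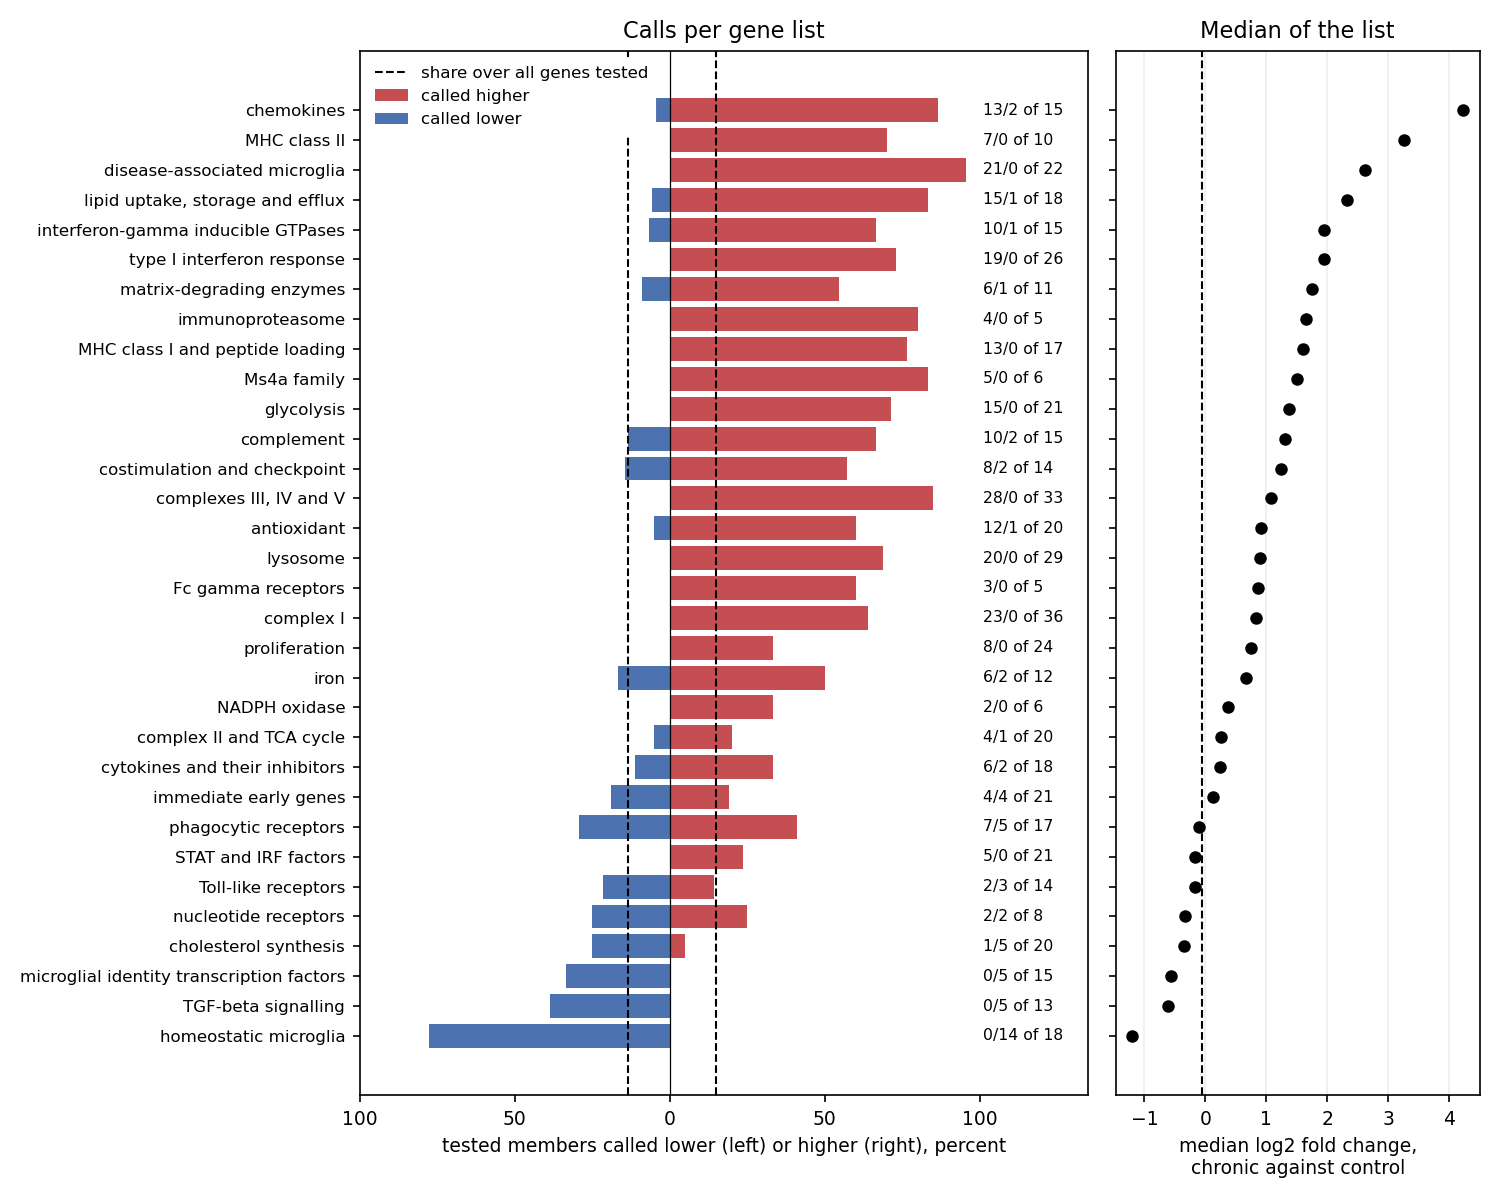
For each of 32 gene lists, the percent of tested members called higher (red, right) or lower (blue, left) in chronic against control microglia, with the counts, and on the right the median log2 fold change; dashed lines give the same over all genes tested. Chemokines, MHC class II and disease-associated genes have the highest medians, and homeostatic genes the lowest.

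Antigen presentation was among the groups with the largest changes. Of 10 MHC class II genes tested, 7 were higher and 0 lower (median 3.25). Cd74, the invariant chain that escorts class II molecules, was at 131, 49.0 and 85.2 CPM in control and 18996, 31880 and 3240 CPM in chronic libraries (7.67 ± 0.78, adjusted p = 1.93e-05). H2-Aa, a class II alpha chain, was at 8.85, 2.73 and 5.60 CPM against 1998, 3611 and 557 CPM (8.48 ± 0.71). H2-Eb1, a class II beta chain, was at 6.28, 2.44 and 5.43 CPM against 1267, 2397 and 423 CPM (8.15 ± 0.65).

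The 3 chronic libraries differed from each other more here than in most lists, with chronic b highest and chronic c far below it. Even so, the log2 ratio inside pool B was 5.24 for Cd74, 6.51 for H2-Aa and 6.16 for H2-Eb1. Ciita, the transcriptional co-activator that switches class II genes on, was detected at 0, 0 and 0.424 CPM in control and at 9.29, 12.2 and 3.68 CPM in chronic libraries (5.30 ± 0.70, adjusted p = 0.000161). With the pool as a term 5 of the 10 class II genes passed.

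The Y-box CTGATTGG, the element through which the factor NF-Y helps to drive class II promoters, is shown for an alpha and a beta chain gene because these were the class II chains with the largest fold changes among those named. The runs, from RefSeq, are written 5′ to 3′ on the gene's strand, and capitals mark the Y-box. H2-Aa lies at chr17:34287842-34287899 on the minus strand and H2-Eb1 at chr17:34305780-34305837 on the plus strand (GRCm38.p6).
H2-Aa: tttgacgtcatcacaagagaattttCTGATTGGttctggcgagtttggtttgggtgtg
H2-Eb1: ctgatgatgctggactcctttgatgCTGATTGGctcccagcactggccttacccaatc
The Y-box stood in 3 of 7 class II genes with a window (42.9%) and in 6.93% of all genes. In the class I list it stood in 6 of 14.

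Class I molecules and peptide loading rose together with them, by smaller factors: 13 of 17 tested genes were higher and 0 lower (median 1.60). H2-D1, a classical class I heavy chain, was at 1176, 1173 and 925 CPM in control and 8449, 9023 and 5300 CPM in chronic libraries (2.80 ± 0.29, adjusted p = 2.28e-05). H2-K1, the other classical heavy chain, was at 466, 742 and 401 CPM against 2924, 3344 and 2130 CPM (2.38 ± 0.30). B2m, their light chain, was at 1451, 2199 and 1243 CPM against 4980, 5242 and 3145 CPM (1.45 ± 0.30). The groups did not overlap for any of the 3, and chronic c was the lowest chronic library each time. H2-M3 (1.60 ± 0.20) and H2-T22 (2.20 ± 0.28) behaved likewise; class I genes are close copies of one another, and the sources used here do not say how reads shared between copies were counted.

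Of the 5 immunoproteasome genes, whose products cut proteins into peptides for class I, 4 were higher and 0 lower (median 1.65). Psmb9 was at 82.6, 98.6 and 80.4 CPM in control and 348, 357 and 184 CPM in chronic libraries (1.76 ± 0.27, adjusted p = 0.000533). Psme1, part of the proteasome activator, was at 291, 201 and 270 CPM against 1072, 1032 and 433 CPM (1.73 ± 0.35). In both, chronic c lay between the controls and the other chronic libraries. With the pool as a term 0 of the 5 passed in edgeR.

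GTPases induced by interferon-gamma, which attack vacuoles that hold microbes, did not all move the same way. Of 15 tested, 10 were higher and 1 lower, with a median of 1.95. Gbp2 was at 7.56, 6.90 and 5.01 CPM in control and 136, 142 and 24.8 CPM in chronic libraries (3.96 ± 0.55, adjusted p = 0.000249). Gbp8 was at 0.385, 0.144 and 0.0849 CPM against 13, 15.5 and 3.33 CPM (5.61 ± 0.72). Gbp5 was at 9.23, 12.4 and 11.0 CPM against 40.6, 38.7 and 16.3 CPM (1.53 ± 0.31). Chronic c was the nearest to control for all 3. Iigp1 had the largest fold change of the list (5.71 ± 0.63), and Gbp6 rose by 4.11 ± 0.48.

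The member that fell was Irgm2, a regulator of the other GTPases, at 23.1, 34.2 and 18.8 CPM in control and 15.2, 14 and 12 CPM in chronic libraries (-0.89 ± 0.27, adjusted p = 0.0256); it is named because it was the exception. Its close relative Igtp did not pass the test (0.42), and neither did Gbp7 (0.48). Irgm2 lost its call with the pool as a term (adjusted p = 0.5), and 6 members were then still called higher.

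The interferon-stimulated response element, searched as GAAA, any 2 bases and GAAA on both strands, stood in 9 of 10 GTPase genes with a window (90%), in 14 of 21 type I interferon genes (66.7%) and in 4.06% of all genes. The shorter TTCNNNGAA, the site of STAT factors, stood in 6 of 10 GTPase genes (60%) against 8.26% of all. Windows are printed for 5 genes that moved differently, because the element was found in members that rose, fell and did not pass. Capitals mark the element, which reads TTTC, 2 bases and TTTC where it lies on the other strand, and each RefSeq run is written 5′ to 3′ on the gene's strand. Isg15 holds overlapping copies, of which 1 is marked. The positions in GRCm38.p6 are chr3:142620579-142620638 for Gbp2, chr3:142496744-142496803 for Gbp5, chr3:142530258-142530317 for Gbp7, chr11:58214888-58214947 for Irgm2, all on the plus strand, and chr4:156200856-156200915 on the minus strand for Isg15.
Gbp2, higher: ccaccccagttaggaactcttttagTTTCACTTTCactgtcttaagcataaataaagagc
Gbp5, higher: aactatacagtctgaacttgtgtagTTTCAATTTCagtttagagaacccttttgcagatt
Gbp7, not called: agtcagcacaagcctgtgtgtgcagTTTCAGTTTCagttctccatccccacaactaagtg
Irgm2, lower: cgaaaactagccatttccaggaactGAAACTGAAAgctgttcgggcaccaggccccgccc
Isg15, higher: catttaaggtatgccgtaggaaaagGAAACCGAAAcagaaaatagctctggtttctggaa
These 5 were chosen with their values known, and a match says nothing on whether a factor was bound.

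Genes of the type I interferon response, the antiviral arm, rose with 19 of 26 tested higher and 0 lower (median 1.94). Isg15, the ubiquitin-like modifier whose window is shown, had a fold change of 2.85 and was named after its value was seen. Zbp1, a sensor of left-handed nucleic acids, was at 4.87, 12.8 and 4.33 CPM in control and 128, 72.2 and 21.9 CPM in chronic libraries (3.35 ± 0.57). Ifitm3, which blocks the entry of viruses, was at 69.5, 112 and 39.9 CPM against 1028, 653 and 192 CPM (3.09 ± 0.54). Bst2, tetherin, was at 254, 320 and 249 CPM against 974, 849 and 517 CPM (1.51 ± 0.27). Control b was the highest control and chronic a the highest chronic library for all 3 genes. Fitted with the pool, 18 of the 26 were called higher, and the median inside pool B was 2.16.

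Of the STAT and IRF factors with their receptors, kinases and brakes, 5 of 21 were higher and 0 lower, against 15% and 13.4% of all genes. The median of the list was -0.16. Irf7, a factor induced by type I interferon, was at 17.9, 18.1 and 7.38 CPM in control and 318, 171 and 24.6 CPM in chronic libraries (3.57 ± 0.67, adjusted p = 0.00194). Socs1, a brake on the pathway, was at 12.6, 11.1 and 12 CPM against 86.2, 40.2 and 12.3 CPM (1.94 ± 0.48). Chronic c lay next to the controls for Socs1, whose groups overlapped, and the ratio inside pool B was 0.04. Irf1 (1.67 ± 0.29) and Socs3 (1.47) were also called higher, Socs3 being named after its value was seen. In the fit with pool 2 of the 21 were called; Irf1 was at 0.67 (adjusted p = 0.342) and Socs3 at -0.019 (adjusted p = 0.998), so both lost their calls and Socs3 its direction.

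Chemokines had the highest median of the 32 lists, 4.23: of 15 tested, 13 were higher and 2 lower. Cxcl9, a ligand of the receptor CXCR3 on activated T cells, was at 1.41, 0.287 and 1.02 CPM in control and 108, 136 and 59.1 CPM in chronic libraries (6.73 ± 0.44, adjusted p = 6.59e-07). Cxcl10, a second CXCR3 ligand, was at 25.9, 4.17 and 3.22 CPM against 371, 227 and 88.2 CPM (4.38 ± 0.73). Cxcl16, which binds CXCR6, was at 67.6, 75.3 and 64.5 CPM against 399, 440 and 243 CPM (2.38 ± 0.25). For Cxcl10 control a was well above the other controls, and still below chronic c.

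Cxcl14 was at 0.897, 5.89 and 2.89 CPM in control and 77.0, 64.0 and 71.5 CPM in chronic libraries (4.48 ± 0.39), with the chronic libraries close together. Ccl8 had 0 UMIs in all 3 controls and 18.4, 34.4 and 8.83 CPM in the chronic libraries, so it was at least 182-fold higher against a floor of 3 UMIs over the control group; with Ccl8 at that bound the median of the list stayed at 4.23. The 2 members that fell were Ccl9 (-1.57) and Ccl24 (-1.54), named as the exceptions. Fitted with the pool, 12 of the 15 were called higher and 0 lower.

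Cytokines did not move as a group: 6 of 18 tested were higher and 2 lower, against 15% and 13.4% of all genes. The median was 0.24, or -0.21 when scaled by library size. Il6 fell from 14.6, 23.4 and 20.8 CPM to 0.536, 3.74 and 3.22 CPM (-2.90 ± 0.42, adjusted p = 0.000345). Il18bp, the secreted inhibitor of interleukin-18, rose from 0.897, 2.59 and 1.36 CPM to 74.9, 96.7 and 15.7 CPM (5.28 ± 0.64). Tnf rose from 12.2, 12.6 and 8.74 CPM to 64.7, 68.3 and 15.9 CPM (2.14 ± 0.43). Il6 was higher in each control than in any chronic library, and Tnf in chronic c was only slightly above the controls. Il1b (2.34 ± 0.49) and Il27 (1.65 ± 0.31) rose from low levels, and neither passed with the pool as a term, when 3 of the 18 were higher and 1 lower.

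Complement genes rose in 10 of 15 cases and fell in 2 (median 1.31). C4b, a protein of the classical pathway, was at 1.54, 5.89 and 0.849 CPM in control and 253, 231 and 67.9 CPM in chronic libraries (6.15 ± 0.65). C3, the central component, was at 1.15, 2.44 and 0.679 CPM against 40.0, 78.7 and 24.8 CPM (5.14 ± 0.50). C2 was at 0.385, 0.287 and 0.255 CPM against 24.5, 16.1 and 3.22 CPM (5.46 ± 0.76). These 3 were nearly absent from control microglia; chronic c was again the lowest. C3ar1, the receptor for a C3 fragment, rose by 1.46 ± 0.23 from a high baseline. Cd46 (-1.28), named as an exception, was among those that fell; it restrains complement, as does Serping1, which rose by 5.56 and was named for that contrast. The pool term left 3 of the 15 higher and 0 lower, with a median of 0.50; C4b, C3 and C2 were called, and C3ar1 (adjusted p = 0.109), Cd46 (0.913) and Serping1 (0.171) were not.

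Among the 5 Fc gamma receptor genes 3 were higher and 0 lower. Fcgr4, an activating receptor for IgG, was at 16, 16.4 and 15.1 CPM in control and 249, 144 and 84.5 CPM in chronic libraries (3.33 ± 0.36, adjusted p = 3.07e-05). Fcgr2b, the inhibitory receptor, rose by 0.86 ± 0.22 and Fcer1g, the shared signalling chain, by 0.97 ± 0.28, while Fcgr3 did not pass (-0.33 ± 0.23). Only Fcgr4 among the 5 passed with the pool as a term. Leaving out chronic a also left 1 called.

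Phagocytic receptors split, with 7 of 17 tested higher and 5 lower, and a median of -0.10. Msr1, a scavenger receptor for modified lipoprotein, was at 0.641, 1.29 and 0.849 CPM in control and 24.8, 23.6 and 12 CPM in chronic libraries (4.42 ± 0.37). Cd300lf, a receptor for lipids on dying cells, was at 2.44, 8.62 and 2.29 CPM against 140, 128 and 67.1 CPM (4.70 ± 0.47). Of the receptors for dying cells in the TAM family, Axl rose from 31.7, 43.1 and 13.8 CPM to 203, 196 and 126 CPM. Mertk, named after its value was seen, fell by 0.83 with overlapping groups, chronic c being at 215 and control a at 211 CPM. With pool in the fit 5 of the 17 were higher and 0 lower (Mertk, adjusted p = 0.899), and leaving out chronic a left 2 lower, any other library but chronic c 3.

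Receptors and ligands of T cell costimulation were higher in 8 of 14 cases and lower in 2 (median 1.25). Cd274, the checkpoint ligand PD-L1, was at 7.69, 11.3 and 7.98 CPM in control and 52.4, 43.6 and 25.3 CPM in chronic libraries (2.16 ± 0.29). Cd40, which receives help from T cells, was at 1.28, 1.72 and 0.509 CPM against 17.0, 13.3 and 3.62 CPM (3.28 ± 0.56). Cd52 was at 705, 642 and 667 CPM against 3456, 3577 and 1902 CPM (2.15 ± 0.28). All 3 kept their calls with the pool as a term. In all, 5 of the 14 were then higher and 0 lower; leaving out chronic c gave 4 lower.

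Smaller families gave mixed results. Of 6 Ms4a genes tested 5 were higher, with Ms4a7 at 0.897, 0 and 0.255 CPM in control and 82.9, 135 and 71.6 CPM in chronic libraries (7.93 ± 0.48). Of 8 nucleotide receptors 2 were higher, P2ry14 and the ATP-gated channel P2rx4 (1.59 ± 0.23), and 2 were lower, P2ry12 and P2ry13. Of all genes 15% were higher and 13.4% lower. With the pool as a term 2 nucleotide receptor genes were higher and 1 lower, and P2ry13 lost its call (edgeR adjusted p = 0.065). Of 14 Toll-like receptor genes 2 were higher and 3 lower, against 15% and 13.4% of all genes; Tlr2 rose by 0.75 ± 0.21, and Tlr3 (-0.96 ± 0.22) and Tlr4 (-0.64 ± 0.20) fell. Of 11 matrix enzymes and their regulators 6 were higher, among them Plaur, the urokinase receptor, at 18.2, 12.6 and 16.2 CPM in control and 250, 260 and 106 CPM in chronic libraries (3.70 ± 0.32). The fit with pool called 1 Ms4a gene higher, Ms4a7, and 0 Toll-like receptor genes either way (edgeR adjusted p = 0.119 for Tlr2, 0.147 for Tlr3 and 0.538 for Tlr4). Without control a, control c or chronic a, 3 Ms4a genes were called, and without control c 0 Toll-like receptor genes were higher and 1 lower. Leaving out control a, chronic a or chronic b left 1 Toll-like receptor gene higher, and leaving out control b, chronic a or chronic b left 1 lower.

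The respiratory chain is the subject of the study's title, and its nuclear-encoded subunits rose moderately in chronic microglia. Subunits made inside mitochondria were not analysed here. Of 36 complex I genes 23 were higher and 0 lower, with a median log2 fold change of 0.83. Ndufa1 was at 103, 63.8 and 108 CPM in control and 407, 470 and 219 CPM in chronic libraries (1.99 ± 0.31, adjusted p = 0.000549). Ndufc1 was at 89.1, 65.9 and 97.0 CPM against 324, 336 and 140 CPM (1.66 ± 0.32), and Ndufv3 at 110, 68.0 and 94.3 CPM against 316, 327 and 149 CPM (1.54 ± 0.31).

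In these 3 genes, all of them for accessory subunits, chronic c lay between the controls and the other chronic libraries. Among the nuclear-encoded core subunits, which carry the path of electrons and were grouped after their values were seen, Ndufs7 (0.86) and Ndufs3 (0.82) were called higher, and Ndufv2 (0.73), Ndufs8 (0.48), Ndufv1 (0.46) and Ndufs1 (0.19) were not. The result depended on the libraries. Without chronic c 28 of 36 were called and the median was 1.00, without chronic b 12 were called, without chronic a 14 and without control a 15, with pool in the fit 0 were called (edgeR) and the ratio inside pool B had a median of 0.30, and with control c as the only control 1 was called. Scaling by library size left 14 higher and a median of 0.37. Chronic a and b also had the fewest genes per cell, 1238 and 1121, and the part of depth in the result was not tested.

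Complexes III, IV and V were alike in this: 28 of 33 tested were higher and 0 lower, with a median of 1.08, and the pool term left 0 called by edgeR with a median of 0.50. Cox8a, a small subunit of complex IV, was at 391, 325 and 481 CPM in control and 1173, 1221 and 862 CPM in chronic libraries (1.44 ± 0.26, adjusted p = 0.00155). Uqcrh, a subunit of complex III, was at 252, 203 and 277 CPM against 664, 681 and 579 CPM (1.40 ± 0.22). Cox4i1 (1.47 ± 0.28) and Cox6c (1.38 ± 0.27) were similar. Each of the 4 separated the groups in full.

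For complex II and the tricarboxylic acid cycle 4 of 20 genes were higher and 1 lower, shares near the 15% and 13.4% of all genes, with a median of 0.26, or -0.19 when scaled by library size. Acod1, the enzyme that diverts the cycle to itaconate, was at 0.256, 0 and 0 CPM in control and 20.2, 50.5 and 5.90 CPM in chronic libraries (8.08 ± 1.06, adjusted p = 0.000158). Sdhb, the iron-sulfur subunit of complex II, was at 109, 60.2 and 104 CPM against 320, 356 and 139 CPM (1.57 ± 0.35). Idh2, the mitochondrial isocitrate dehydrogenase that makes NADPH, fell from 97.7, 61.3 and 93.3 CPM to 49.5, 56.9 and 40.0 CPM (-0.79 ± 0.24). Mdh1 (1.12 ± 0.37) overlapped between the groups and stood at -0.025 with the pool as a term. The fit with pool left 1 higher and 1 lower, Acod1 and Idh2, and Sdhb lost its call (adjusted p = 0.78). Leaving out any library other than chronic c left 2 higher, and leaving out chronic c gave 7.

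Glycolytic genes were higher in 15 of 21 cases and lower in 0, with a median of 1.37. Pgk1, phosphoglycerate kinase, was at 49.9, 40.4 and 47.2 CPM in control and 295, 330 and 138 CPM in chronic libraries (2.47 ± 0.30, adjusted p = 7.98e-05). Aldoa, aldolase, was at 224, 174 and 229 CPM against 1180, 1384 and 595 CPM (2.33 ± 0.31). Tpi1 was at 96.5, 78.2 and 85.1 CPM against 342, 372 and 230 CPM (1.86 ± 0.23). The fit with pool called 7 of the 21 higher, these 3 among them.

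Of the subunits of the phagocyte NADPH oxidase, which makes superoxide, 2 of 6 were higher and 0 lower, against 15% and 13.4% of all genes. The 2 that were higher form the membrane part. Cybb, the catalytic subunit gp91phox, was at 5.77, 18.1 and 8.06 CPM in control and 147, 160 and 160 CPM in chronic libraries (3.88 ± 0.36, adjusted p = 9.78e-06). Its partner Cyba was at 1449, 1027 and 1639 CPM against 3105, 3490 and 2407 CPM (1.13 ± 0.27). Cybb was even across the chronic libraries, and the ratio inside pool B was 4.22. Cybb alone was called with the pool as a term, when Cyba was at 0.55 (adjusted p = 0.673). Ncf1 (-0.34 ± 0.21) and Rac2 (0.76 ± 0.30, adjusted p = 0.0734) were not called, and the median of the list, 0.37, turned to -0.09 when scaled by library size.

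Antioxidant genes were higher in 12 of 20 cases and lower in 1 (median 0.91). Gpx3, a secreted glutathione peroxidase, was at 0.897, 0 and 0 CPM in control and 18.2, 25.6 and 8.07 CPM in chronic libraries (5.89 ± 0.71). Prdx1, a peroxiredoxin, was at 251, 201 and 271 CPM against 1513, 1654 and 680 CPM (2.41 ± 0.35). Txn1, thioredoxin, was at 53.8, 55.5 and 53.0 CPM against 170, 179 and 122 CPM (1.54 ± 0.26). The 3 controls were nearly identical for Txn1. Srxn1, which repairs peroxiredoxins, rose by 1.93 ± 0.28. The pool term left 2 of the 20 higher, Gpx3 and Srxn1, with a median of 0.42, and Prdx1 (adjusted p = 0.115) and Txn1 (0.141) lost their calls.

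Of 12 iron genes 6 were higher and 2 lower, against 15% and 13.4% of all genes (median 0.68). Fth1, the heavy chain of ferritin, was at 4008, 2959 and 4425 CPM in control and 24960, 30378 and 14192 CPM in chronic libraries (2.61 ± 0.33, adjusted p = 0.000117). Ftl1, the light chain, was at 1909, 1672 and 2216 CPM against 5424, 5668 and 5881 CPM (1.55 ± 0.24). Slc40a1, ferroportin, the only known exporter of iron, was at 88.6, 91.5 and 107 CPM against 26.5, 45.6 and 43.6 CPM (-1.31 ± 0.22). Slc11a2, an iron importer, rose by 1.48 ± 0.25. The pool term left 1 higher, Fth1, and 1 lower, Slc40a1; Ftl1 (adjusted p = 0.0714) and Slc11a2 (0.182) lost their calls.

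Genes of cell division were higher in 8 of 24 cases and lower in 0 (median 0.76), but Mki67, the usual marker of cycling cells, did not pass: it was at 3.59, 10.6 and 5.26 CPM in control and 9.29, 11.8 and 3.51 CPM in chronic libraries (0.27 ± 0.44, adjusted p = 0.66). Cdk1, which drives entry into mitosis, was at 5.77, 10.1 and 4.58 CPM against 41.5, 33.3 and 10.6 CPM (2.06 ± 0.47). Rrm2, which makes nucleotides for DNA synthesis, was at 2.95, 1.72 and 1.78 CPM against 29.1, 15.7 and 2.63 CPM (2.82 ± 0.66). Chronic c overlapped the controls for Mki67 and Rrm2, and 16 members were called without it. Leaving out chronic a left 2 called, control b 3, control c or chronic b 4 each and control a 5, and the pool term left 0 in edgeR.

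Immediate early genes, which mechanical dissociation can induce, were higher in 4 of 21 cases and lower in 4, not far from the 15% and 13.4% of all genes, with a median of 0.12 that turned to -0.37 when scaled by library size. Atf3, a stress-induced factor, was at 37.8, 24.9 and 37.1 CPM in control and 204, 169 and 156 CPM in chronic libraries (2.40 ± 0.24, adjusted p = 1.9e-05). Egr2 was at 1.03, 2.01 and 1.36 CPM against 11.3, 13.7 and 10.8 CPM (3.02 ± 0.43). Both separated the groups with even chronic libraries, while Jun, named as an exception, fell by 1.58. The pool term left 4 higher and 0 lower (Jun, adjusted p = 0.61), and leaving out control b or chronic b left 1 lower, control a or chronic a 2.

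Summed counts do not show how many cells take part, so shares of microglia with at least 1 UMI were computed after thinning each cell to 1000 UMIs; 4, 1 and 9 control and 31, 34 and 15 chronic cells had fewer and were left out. Apoe was found in 33.9%, 22.4% and 19.6% of control microglia and in 99.7%, 99.8% and 99.9% of chronic microglia, so nearly every chronic cell had it. Apoe was also found in other cells: 71.1% of 225 T cells of the chronic libraries had a UMI at the same depth. Whether free RNA in the suspension put it there was not tested. A thinned chronic microglial cell held on average 25.6, 23.9 and 33.1 Apoe UMIs, against 2.50, 2.02 and 3.66 in T cells of the same libraries and 1.36, 1.29 and 0.936 in control microglia. In each chronic library the microglia held far more than the T cells.

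Other genes were found in part of the cells only. Spp1 was found in 1.25%, 1.39% and 1.05% of control and 50.0%, 36.5% and 38.7% of chronic microglia, with 17.8% of T cells. Gpnmb was found in 0.0567% of the cells of control a, in none of controls b and c, and in 15.4%, 16.3% and 6.59% of chronic microglia, with 2.67% of T cells. Clec7a was found in 4.31%, 5.23% and 4.43% against 30.6%, 31.7% and 27.0%, with 3.56% of T cells. Each chronic share lay above the T cell share and above every control. Igf1 was in 0.0686% of control and 7.80% ± 2.73 (SD, n = 3) of chronic microglia, and Cxcl9 in 0.0771% and 3.44% ± 1.71 (SD, n = 3). These shares depend on depth and do not limit the share of cells that express the genes: Igf1 was in 13.5% of chronic microglia thinned to 2000 UMIs and in 18.7% without thinning, and Cxcl9 in 6.06% and 6.80%.

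Cd74 was found in 9.80%, 4.44% and 5.55% of control and 94.7%, 97.2% and 61.3% of chronic microglia, and H2-Aa in 0.680%, 0.348% and 0.217% against 53.2%, 70.3% and 22.6%. T cells had a Cd74 UMI in 47.6% and an H2-Aa UMI in 12.9% of cells. Whether these UMIs came from the T cells or from free RNA in the suspension was not tested. On the other side, P2ry12 was found in 95.0%, 86.9% and 92.8% of control microglia and in 33.0%, 46.7% and 54.4% of chronic microglia, and Cx3cr1 in 85.7%, 91.3% and 89.0% against 27.5%, 30.4% and 67.5%. For each gene in this and the 2 preceding paragraphs except Trem2, exact permutation tests gave p = 0.1. That is the smallest possible for 3 against 3 libraries. Without thinning, the mean shares were 100.0% against 48.9% for Apoe, 62.1% against 2.90% for Spp1, 21.5% against 0.156% for Gpnmb, 93.8% against 17.1% for Cd74 and 68.6% against 99.4% for P2ry12. Trem2 was found in 85.1% ± 8.12 (SD, n = 3) of chronic and 93.8% ± 0.308 (SD, n = 3) of control microglia (exact permutation test, p = 0.4).

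**Figure D4:**
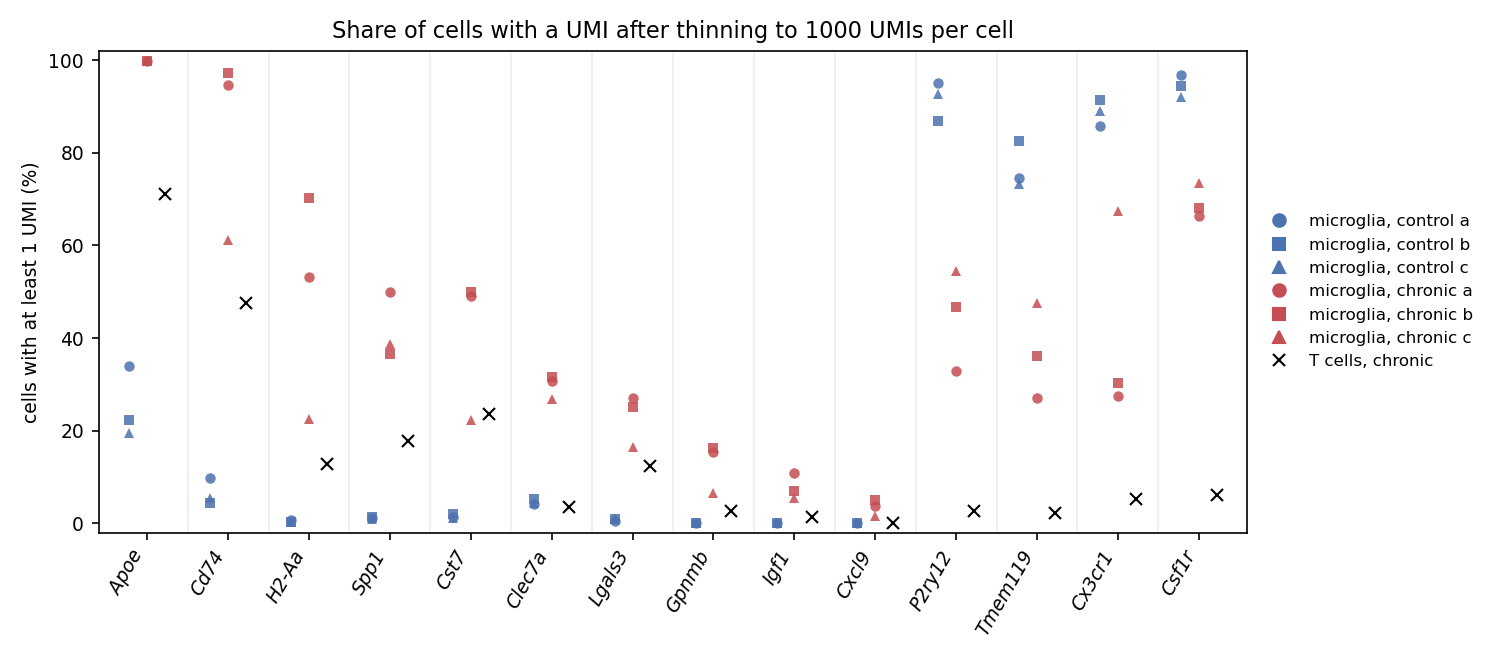
Percent of microglia with at least 1 UMI of each of 14 genes after thinning every cell to 1000 UMIs. Points are the control and chronic libraries, and crosses give the T cells of the chronic libraries for comparison. Apoe is near 100% in all chronic libraries, Gpnmb, Igf1 and Cxcl9 stay below 17%, and P2ry12, Tmem119 and Cx3cr1 fall furthest in chronic a and b.

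Markers of other cells were summed in the same microglia to see what moved with the groups. T cell markers came to 107, 96.8 and 91.7 CPM in control and 5.63, 11.9 and 14.1 CPM in chronic libraries; the 1 tested member of 11 was Il7r, and it made up most of the control sum. Monocyte markers came to 9.57, 12.4 and 6.97 CPM in control and 282, 142 and 89.3 CPM in chronic libraries, of which Fn1 was the greater part; 5 of 12 were tested, with 2 higher (Fn1 and Lyz1, the latter at 0.357, 2.81 and 1.75 CPM in chronic libraries) and 1 lower (S100a4, -2.01). Markers of border-associated macrophages, the macrophages of the meninges and vessels, came to 6.77, 5.35 and 6.39 CPM against 82.9, 123 and 79.4 CPM, most of it Ms4a7. The 4 tested of 11 were all higher, beside 15% of all genes: Ms4a7, Siglec1 (2.46), Clec12a (2.28) and Pf4 (1.34). The filter can pass a member that is high in a single group, so this count is no support for a shift of the list. With no filter 10 were tested and 4 were higher. With the pool as a term Ms4a7 alone was called in edgeR (adjusted p = 0.126 for Siglec1, 0.11 for Clec12a and 0.539 for Pf4). Of the monocyte markers Fn1 alone then kept its call.

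Natural killer markers came to 21.0, 10.9 and 16.5 CPM in control and 2.81, 5.55 and 1.56 CPM in chronic libraries, and the 1 member tested, Klrd1, fell by 4.64. Dendritic cell markers came to 1450, 1728 and 1305 CPM in control and 204, 256 and 456 CPM in chronic libraries, with 0 of 5 higher and 2 lower, of which Siglech is also a microglial gene. Oligodendrocyte (9 tested) and neuronal (4 tested) markers had no called member by edgeR, and of 8 astrocyte markers 2 were higher, Gfap at 6.79, 8.04 and 4.97 CPM in chronic against 2.18, 0.144 and 1.19 CPM in control libraries, and Slc1a3 (0.92). Of 4 endothelial markers 1 was higher and 1 lower, of 3 neutrophil markers 1 was higher, the 1 tested B cell marker was not called, and 0 red cell markers were tested. Over all genes tested 15% were higher and 13.4% lower. With the pool as a term no astrocyte or neutrophil marker was called by edgeR (adjusted p = 0.0549 for Gfap and 0.0992 for Slc1a3). Of the dendritic cell markers 1 was then lower, and Siglech lost its call (edgeR adjusted p = 0.0765). The part of other cells in Fn1, Ms4a7, Pf4 and Gfap was not tested.

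Peak microglia, 486 and 704 cells, were set beside the chronic ones. Both contrasts use the same control libraries, so values are set side by side, and the difference was tested in the same fit as chronic against peak: 1083 genes were higher in chronic microglia (9.78%) and 1318 lower (11.9%). No pool holds both stages, so stage and pool cannot be told apart. Depth differed too, with a median of 8446.5 and 8521 UMIs per microglial cell in the peak libraries. Of the tested neuronal markers 4 of 4 were higher in chronic than in peak microglia, of the oligodendrocyte markers 6 of 9 and of the astrocyte markers 5 of 8. In these 3 lists 0 were lower. The part of other cells in this contrast was not tested.

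Igf1 was at 3.63 and 0.548 CPM at the peak, values on either side of the 1.41, 1.58 and 2.89 CPM of the controls, and at 183, 126 and 105 CPM in the chronic stage (6.12 ± 0.53, adjusted p = 0.000128). Spp1 was at 375 and 71.1 CPM at the peak and at 6478, 5101 and 5559 CPM in the chronic libraries (4.68 ± 0.72). Apoe was at 10878 and 14682 CPM at the peak (1.45 ± 0.30). Of the 22 disease-associated genes 14 were higher in chronic than in peak microglia and 0 lower, of the 18 lipid genes 7 and 1, and of the 11 matrix enzymes 4 and 1. Plau, urokinase, was at 19.1 and 17.7 CPM at the peak and 123, 120 and 107 CPM in the chronic stage (2.66 ± 0.26), and Crip1 was at 11.1 and 11.1 CPM against 128, 102 and 99.0 CPM (3.30 ± 0.32). Fcrls, a microglial Fc receptor-like gene, was at 46.8 and 25.4 CPM at the peak and at 1896, 1036 and 795 CPM in the chronic stage (5.11 ± 0.48), a level that overlapped with the 1246, 830 and 904 CPM of the controls.

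Of the 15 interferon-gamma GTPases 0 were higher and 14 lower than at the peak, with a median of -2.54. Gbp5 was at 286 and 229 CPM at the peak (-3.04 ± 0.33), and Gbp4 at 212 and 193 CPM against 19.7, 18.5 and 4.74 CPM (-3.89 ± 0.46). Ciita was at 163 and 111 CPM at the peak against 9.29, 12.2 and 3.68 CPM (-4.12 ± 0.43). Of the 10 class II genes 4 were lower than at the peak and 0 higher. H2-Aa, at 2844 and 3553 CPM at the peak, did not differ by the test from its chronic level (-0.64 ± 0.56, adjusted p = 0.423), and neither did Cd74 (0.74 ± 0.66, adjusted p = 0.437). Slamf7, at 93.1 and 64.8 CPM at the peak (0.21 ± 0.24), and Itgax (0.25 ± 0.28) also gave no call. Of the proliferation genes 0 were higher and 8 lower than at the peak, Mki67 among them at 53.2 and 42.6 CPM at the peak (-2.63 ± 0.45).

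**Figure D5:**
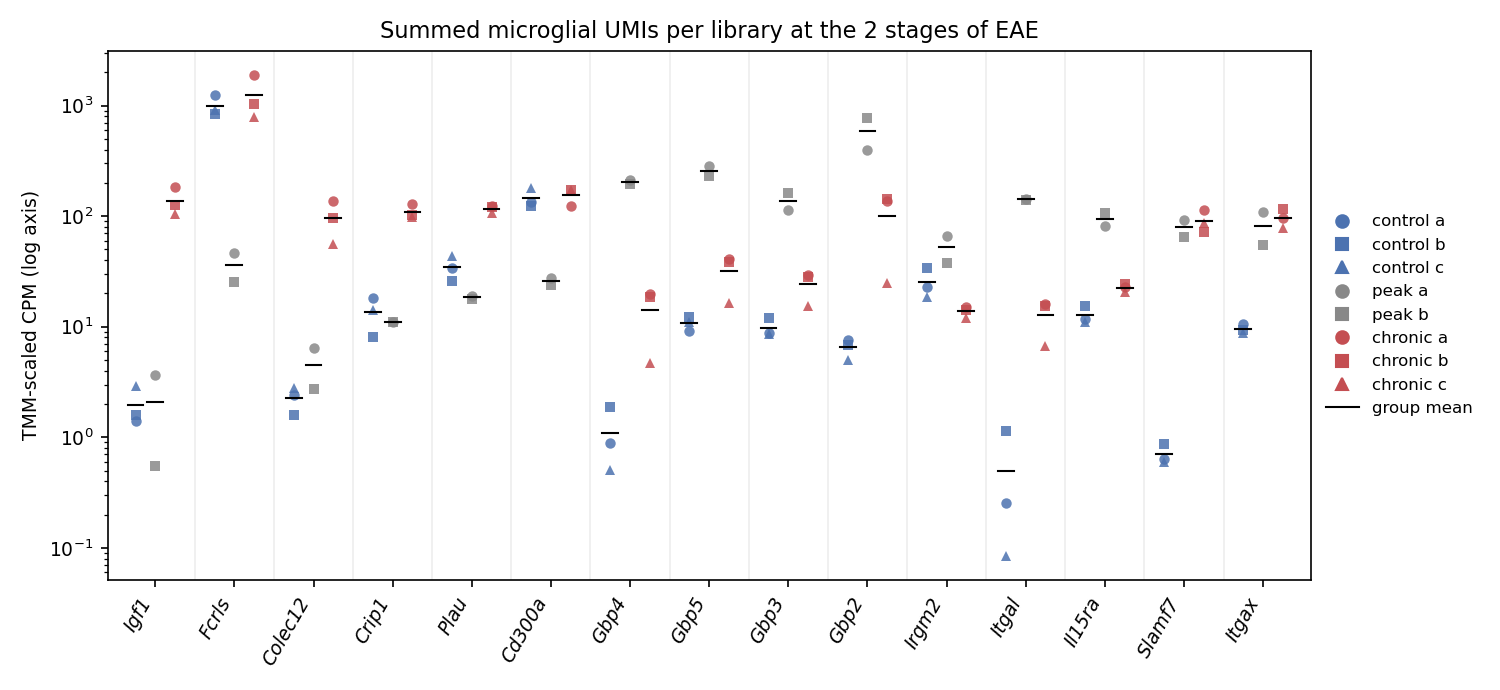
CPM (log axis) of 15 genes in the control, peak and chronic resident libraries of microglia; each point is 1 library and black bars are group means. Igf1, Fcrls, Colec12, Crip1 and Plau are higher in the chronic than in the peak libraries, the Gbp genes and Itgal are highest at the peak, and Slamf7 and Itgax were not called between the disease stages.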

How the data were processed

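Single-cell RNA was measured in 13 libraries; 6 (3 control, 3 chronic resident) were compared and 2 peak libraries shared the fit. The authors deposited UMI counts per gene and cell, made with Cell Ranger 3.1.0 and R 4.1.3 per the submitters' processing notes, which list GRCm38 and mm10 as builds and, in the sources used here, no gene annotation. The deposited cell table gives the class, gate, SLX pool, a mitochondrial percent and a log10 UMI total per cell; 0 cells are marked as doublets and none were removed here.

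UMIs of cells annotated as microglia were summed per library and tested with edgeR 4.0.16 (R 4.3.3): filterByExpr by group, TMM scaling, quasi-likelihood F test on 3 group means (8 libraries, 5 residual degrees of freedom, biological coefficient of variation 21.45%), two-sided, Benjamini-Hochberg over 11078 genes, threshold 0.05. CPM are TMM-scaled for genes and scaled by library size for sums of markers. Standard errors derive from the F statistic. The procedure was tested on simulated data. Shares were tested with exact permutation (scipy 1.17.1); intervals and floors cover counting error only.

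Genes named are up to 10 higher and 10 lower with the smallest p (absolute log2 fold change of at least 1, average log2 CPM of at least 5, no overlap), up to 4 members of each list with the smallest p, a fixed set, and up to 6 each way against peak; exceptions are marked as named after their values were seen. The members and lists were chosen with earlier results of these data known. Alternatives were library-size scaling, no filter on low counts, the 6 libraries alone, pool as a term, all resident cells, each library left out, DESeq2 1.42.0 and, chosen after seeing the data, control c as the only control, since the cell table marks it as the control of the chronic stage. Values of some list members are not reported here.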

Additional observations from a re-analysis of the deposited data

Results flagged for a closer look

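12 genes were picked for their difference between the disease stages, by the smallest p in edgeR's test of chronic minus peak. That they pass this test follows from the rule and is not a result. On the log2 scale Igf1 (6.12), Fcrls (5.11), Colec12 (4.42), Crip1 (3.30), Plau (2.66) and Cd300a (2.61) were higher in the chronic stage. Ciita (-4.12), Gbp4 (-3.89), Itgal (-3.53), Gbp5 (-3.04), Gbp3 (-2.51) and Il15ra (-2.07) were lower. Fcrls and Cd300a did not pass against control (0.32 and 0.10), so chronic libraries were near the control level and peak libraries below it. Stage and pool cannot be told apart.

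Cells called microglia were also found in libraries sorted in the gate for infiltrating cells, which enter no comparison: 1915 of the 2359 cells (81.2%) of chronic infiltrating b, 74 of 553 in chronic infiltrating c and 11 of 612 in chronic infiltrating a. On CPM scaled by library size, those of chronic infiltrating b had Apoe at 25802.5, Spp1 at 3611 and Gpnmb at 447 CPM, and those of chronic infiltrating c had Apoe at 36017, Spp1 at 6046 and Gpnmb at 213 CPM. Control resident microglia had Apoe at 1545, 1317 and 1238, Spp1 at 39.9, 149 and 150, and Gpnmb at 0.736, 0.554 and 0.774 CPM on that scale.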

How the results depend on the processing

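Of genes called higher and lower (1661 and 1479), library-size scaling gave 918 and 4377, the pool as a term 397 and 167, and control c as the only control, chosen after seeing the data, 497 and 310. Leaving out 1 library in turn gave 1025 to 2443 higher and 693 to 2476 lower. No filter, the 6 libraries alone, all resident cells and DESeq2 stayed within 1.5 times of both counts. The pool term ended the call of 70 named genes, control c alone of 51, library-size scaling of 10 and the removal of a single library of 7 to 13 (0 for chronic c); DESeq2, no filter and the 6 libraries alone ended none. Turns of direction were looked for among called genes chosen by the naming rules and list medians, not among the other called genes. With the pool as a term Mdh1 turned (-0.025) and lost its call, in addition to the 70 above. Socs3, named after its value was seen, turned as well (-0.019). With all resident cells summed, Lyz1 (-0.30), S100a4 (1.32), Pf4 (-1.99) and the median of border-associated macrophage markers (-0.51) turned. With the 6 libraries alone, the median of monocyte markers turned (-0.52). Genes named here and not called that changed sign with the pool as a term included Gbp7 (-0.54), Igtp (-0.07) and Mki67 (-0.58). Ndufs8 (-0.04), Ndufs1 (-0.10), Fcrls (-0.19), Cd300a (-0.05) and Crybb1 (-0.99) did so too. The cause was not tested. Counts of 1 or 2 genes in a list, such as the lower cytokine, complement, iron and nucleotide receptor genes, moved by 1 or 2 genes when a library was left out. No paired analysis was possible because the deposited cell table carries no replicate numbers. Libraries of 5415670 UMIs or more leave genes at a few UMIs per library with wide errors, and shares of cells are limits of detection at 1000 UMIs.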

Other observations

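The microglia of chronic infiltrating b and c were close to the resident chronic libraries of their own pool in 3 further genes, picked after their values were seen. Cd74 was at 26393 CPM in chronic infiltrating b, beside 15734 and 26273 CPM in chronic resident a and b of the same pool, and at 3268 CPM in chronic infiltrating c, beside 3085 CPM in chronic resident c. Cx3cr1 was at 421 CPM in chronic infiltrating b, beside 359 and 381 CPM, and at 1149 CPM in chronic infiltrating c, beside 1279 CPM. Cst7 was at 1292 CPM beside 1149 and 1376 CPM, and at 477 CPM beside 447 CPM. Other genes were less close in chronic infiltrating c, which held 74 microglia. There Cxcl10 was at 0 CPM beside 84.0 CPM in chronic resident c, Lgals3 at 723 beside 438 CPM and C3 at 8.51 beside 23.6 CPM. Each value is 1 library scaled by library size, with no test.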
